A study of Homo sapiens with 6 samples.

Results

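ATP-binding cassette (ABC) transporters were examined in a human papillary thyroid carcinoma line made resistant to lenvatinib, with and without a hairpin against KRT15. The members are the protein-coding genes of the deposited count table whose symbol is ABC, a subfamily letter from A to G and a number. The rule took 39 of the 22681 genes in the table, of which 16031 are protein coding. Subfamily A gave 11 members, B gave 8, C gave 9, D gave 4, E gave 1, and F and G gave 3 each. All 6 cultures were TPC-1 cells selected for resistance to lenvatinib, an inhibitor of VEGF, FGF and PDGF receptors, KIT and RET, and all were kept in 10 µM of it. Liposomes delivered a non-targeting hairpin to 3 cultures (shNC) and a hairpin against KRT15, a keratin of basal epithelial cells, to the other 3 (shKRT15). Each group thus carried a hairpin, a single hairpin stood for KRT15, and no drug-sensitive or drug-free culture was part of the comparison. The labels number the replicates without naming separate transfections, so the p-values measure the spread between these samples, which may be technical.

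ABC transporters bind and hydrolyse ATP in a pair of cytosolic domains and use the energy to move a substrate across a membrane. Members at the cell surface export drugs, drug conjugates, sterols and phospholipids, and others work in lysosomes, mitochondria and peroxisomes. Subfamilies E and F have the ATPase domains without a membrane part and act on ribosomes. In tumour cells the family is best known for P-glycoprotein (ABCB1), BCRP (ABCG2) and the multidrug resistance proteins of subfamily C, which lower the amount of drug inside the cell. Lenvatinib is a known substrate of P-glycoprotein and BCRP.

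The libraries held 36286059 to 36808695 counted reads in shNC and 39868231 to 41343780 in shKRT15, and the family took 0.113 to 0.137% of them. KRT15 itself, the targeted gene, differed by a log2 fold change of −0.38 ± 0.10 (SE, adjusted p = 0.00465, edgeR quasi-likelihood test). The thyroid factor PAX8 was at 375 CPM (read counts scaled to library size) in shNC and 410.4 CPM in shKRT15, whereas NKX2-1 and TSHR had 1 read each over 6 libraries. The labels call the cells epithelial, but EPCAM had 8 reads and CDH1 had 5 in all. The other 5 of 7 epithelial markers were expressed, CLDN4 mainly in shNC. KRT18 and ELF3 were called higher and CLDN4 was called lower (279 reads against 14, or 0.113 CPM in shKRT15). The summed list ranged from 278 to 303 CPM in shNC and from 418 to 439.8 CPM in shKRT15. Summed fibroblast markers (7 of 7 in the table) ranged from 18.1 to 23.4 CPM in shNC and from 7.87 to 8.57 CPM in shKRT15. Of the 3 tested, LUM (log2 fold change −2.77) and COL1A1 (−1.52) were called lower, whereas PDGFRB (1.05) was called higher. Summed leukocyte markers (7 of 9 in the table) ranged from 208 to 209 CPM against 158 to 186 CPM, nearly all of it CD68 and LAPTM5, with PTPRC at 43 reads against 0. Endothelial markers (5 of 6 in the table) summed to 0.814 to 1.86 CPM against 1.14 to 2.10 CPM. Mitochondrially encoded genes took 4.99 to 5.24% of reads in shNC and 4.86 to 6.54% in shKRT15. The part of these differences in the results on the transporters was not tested, and in such bulk samples fewer cells of a type and less RNA per cell cannot be told apart.

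More members were lower than higher in shKRT15 cells, with the sterol exporter ABCA1, the potassium channel subunit ABCC9 and most drug pumps of subfamily C lower, and ABCA12, ABCA2 and ABCC4 higher. Of 31 members with enough reads to test, 7 were called higher, 12 lower and 12 were not called, at an adjusted p under 0.05. These shares are 22.6% higher and 38.7% lower, against 22.1% and 23% of all 14356 genes tested, 45% of which were called in either direction. The median log2 fold change was −0.13 over the members and −0.0013 over all genes. A change that was called and at least 2-fold was seen for 4 members (12.9%, against 8.95% of all genes): ABCA1, ABCC9 and ABCC2 on the lower side and ABCA12 on the higher side. The CPM ranges of the groups were separate for 23 of 31 members (74.2%, against 54% of all genes). No member entered the test through reads in only 1 of the groups.

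**Figure D1:**
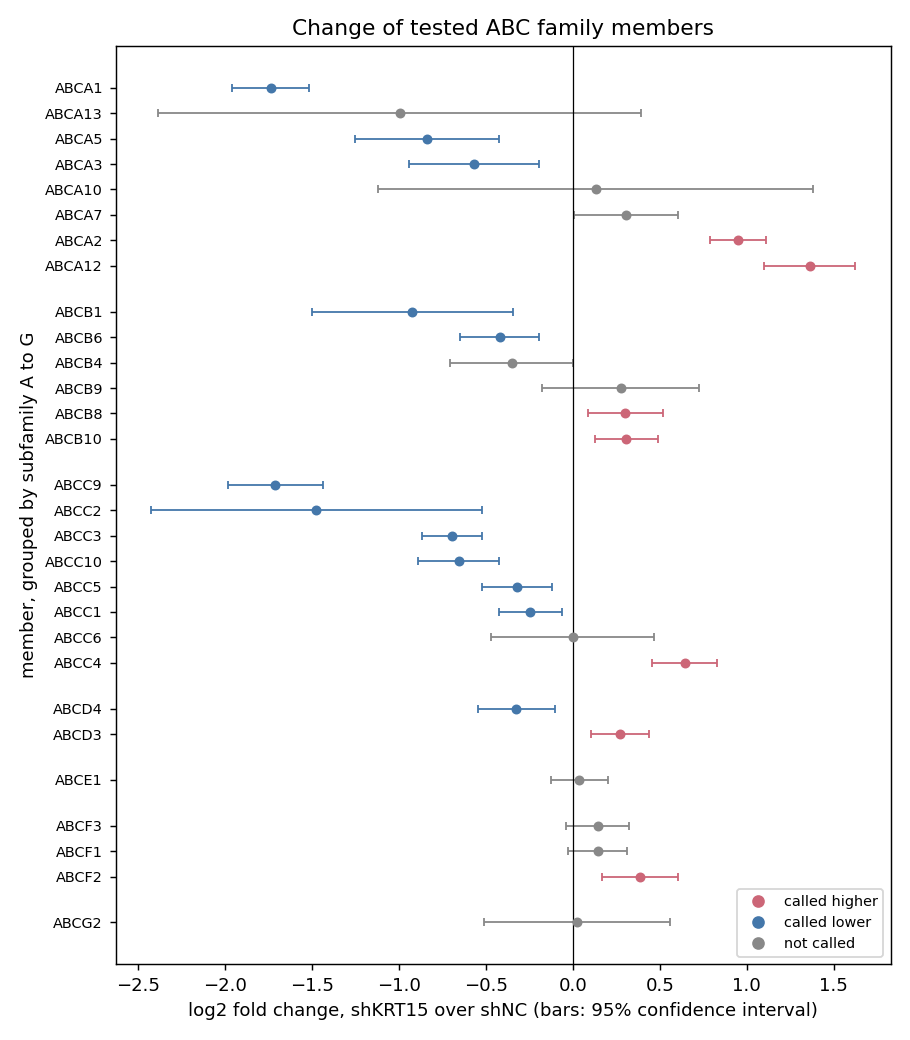
The log2 fold change of 29 of the 31 tested members (x axis, shKRT15 over shNC, bars are 95% confidence intervals) is drawn by subfamily from A to G on the y axis, coloured by whether edgeR's test called it. Subfamily C lies mostly left of 0, with ABCC4 alone on the right at 0.64, while subfamilies A and B hold calls on both sides.

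By subfamily, C leaned furthest to the lower side, with 6 lower, 1 higher and 1 uncalled of 8 tested and a median log2 fold change of −0.49. That is 75% lower and 12.5% higher, against 23% and 22.1% of all genes tested. Subfamily A had 3 lower and 2 higher of 8 (37.5% and 25%, median −0.22). B had 2 lower and 2 higher of 7 (28.6% each, median −0.13). In D, 1 of 3 was lower and 1 higher (33.3% each, median −0.16), and in F, 1 of 3 was higher (33.3%, median 0.14). In subfamilies this small a single gene moves these shares widely. The only tested members of E (ABCE1, 0.04) and G (ABCG2, 0.03) were not called. With 3 against 3 libraries the smallest p an exact permutation test can give is 0.1, so single members were judged by the fit across all genes. For calls that a left-out library or another setting ended, the values without it are given with the member.

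The sequences just upstream of the members with the largest changes are shown for the elements they carry, and they come from RefSeq on GRCh38.p14. Windows could be matched for 32 members, and those printed are the 2 largest falls and the 2 largest rises among called members with a single start in that table. Each is 250 bases ending at the base before the start site, written 5′ to 3′ on the gene's strand, which is the minus strand for all of them.
ABCA1 chr9:104928156-104928405: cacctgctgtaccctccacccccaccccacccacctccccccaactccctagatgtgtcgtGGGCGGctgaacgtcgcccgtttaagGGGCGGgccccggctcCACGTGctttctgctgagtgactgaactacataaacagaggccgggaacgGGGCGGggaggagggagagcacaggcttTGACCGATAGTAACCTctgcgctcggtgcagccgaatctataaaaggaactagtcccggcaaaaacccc
ABCC9 chr12:21941427-21941676: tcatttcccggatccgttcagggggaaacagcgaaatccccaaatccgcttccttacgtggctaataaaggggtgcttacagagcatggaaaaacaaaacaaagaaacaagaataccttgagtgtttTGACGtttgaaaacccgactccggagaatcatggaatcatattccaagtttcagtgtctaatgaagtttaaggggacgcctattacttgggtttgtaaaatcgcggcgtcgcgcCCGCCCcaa
ABCC4 chr13:95301452-95301701: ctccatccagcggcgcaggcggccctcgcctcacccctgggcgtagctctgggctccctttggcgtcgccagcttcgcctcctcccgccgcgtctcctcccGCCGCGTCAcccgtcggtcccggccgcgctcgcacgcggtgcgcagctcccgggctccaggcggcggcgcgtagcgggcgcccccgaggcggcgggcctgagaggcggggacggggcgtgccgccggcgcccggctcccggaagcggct
ABCF2 chr7:151227206-151227455: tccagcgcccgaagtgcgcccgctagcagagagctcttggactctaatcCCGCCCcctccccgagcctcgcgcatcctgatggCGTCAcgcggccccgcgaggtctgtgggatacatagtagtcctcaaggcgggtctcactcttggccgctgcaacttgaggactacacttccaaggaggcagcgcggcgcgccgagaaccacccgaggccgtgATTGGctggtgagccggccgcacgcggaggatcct
Capitals mark matches, on either strand, to the GC box GGGCGG, the CCAAT box CCAAT, the AP-1 element TGANTCA, the E-box CACGTG, the cAMP response element core TGACG, the antioxidant response element TGACNNNGC and a loosened form of the spaced direct repeat bound by LXR. The window of ABCA1 held 3 GC boxes, 1 E-box and 1 match to the LXR repeat, whose first base lies 69 bases before the start. That repeat was found in 28 of 35116 windows of the same length (0.0797%), and in no other member's window. In ABCC4 the antioxidant element and the cAMP core overlap in a single run of capitals. ABCC9 held 1 GC box and 1 cAMP core, and ABCF2 held 1 GC box, 1 CCAAT box and 1 cAMP core. Over all windows, 42.6% held a GC box, 32% a CCAAT box, 6.57% an AP-1 element, 6.34% an E-box, 21.2% a cAMP core and 10.9% an antioxidant element. The 48 windows of members held these at 52.1%, 20.8%, 10.4%, 18.8%, 33.3% and 18.8%, respectively. These are letter matches, and no binding was measured.

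The drug efflux pumps were examined for whether the hairpin moved the cells' means of exporting drugs. The table held 10 such pumps with 9 testable, of which 6 were lower, 1 was higher and 2 were not called. That is 66.7% lower and 11.1% higher, against 23% and 22.1% of all genes tested. The lower ones were ABCC1, ABCC2, ABCC3, ABCC5, ABCC10 and ABCB1, and the higher one was ABCC4. Their median log2 fold change was −0.32. Leaving out shNC replicate 1 reduced the lower calls from 6 to 3, ending those of ABCC1, ABCC5 and ABCB1.

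**Figure D2:**
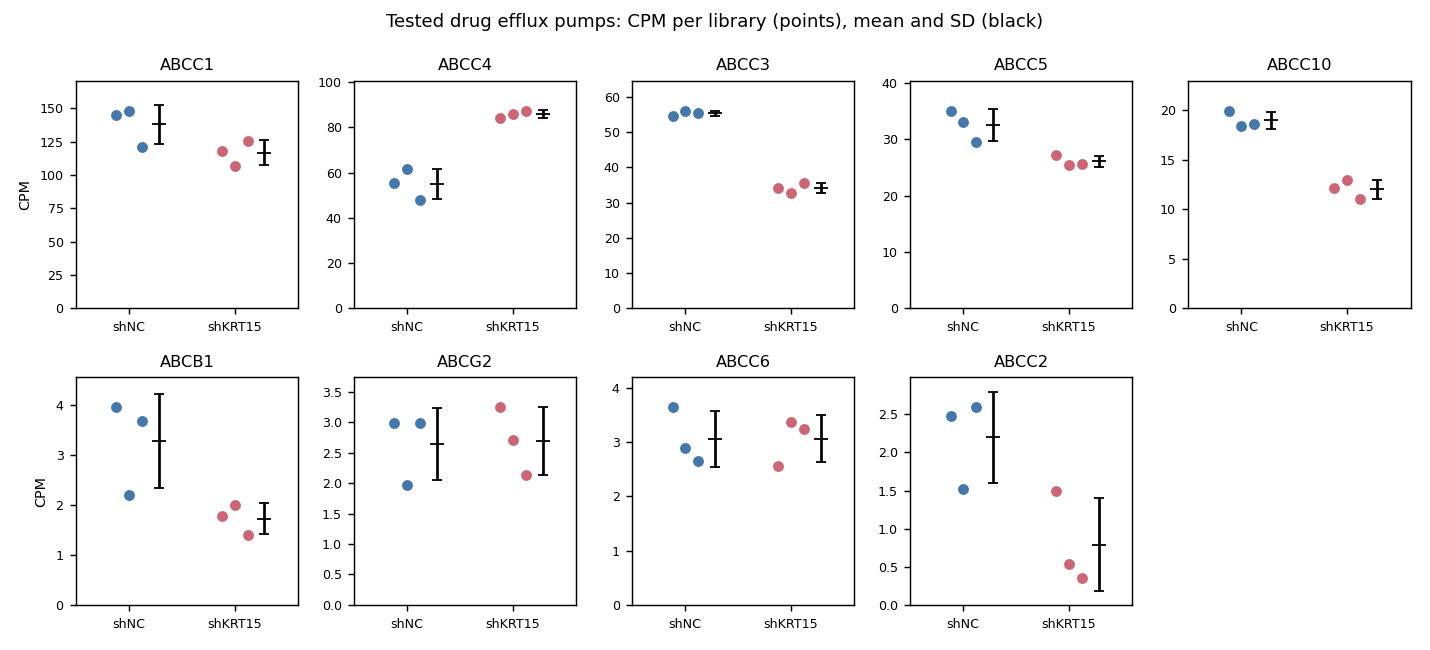
CPM (y axis, starting at 0) of the 9 tested drug efflux pumps in each of the 3 shNC and 3 shKRT15 libraries (points), with the mean and SD in black. ABCC3 and ABCC10 lie lower and ABCC4 higher in every shKRT15 library, and the points of ABCC1, ABCG2 and ABCC6 overlap between the groups.

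ABCC3 (MRP3), which exports glucuronide and bile salt conjugates, was at 54.6, 56.1 and 55.4 CPM in the shNC libraries and at 34.3, 32.8 and 35.7 CPM in shKRT15. The groups lay far apart next to the narrow spread within each, a log2 fold change of −0.69 ± 0.08 (SE, adjusted p = 2.83e-06). ABCC10 (MRP7), a pump known to confer resistance to taxanes, had 20.0, 18.4 and 18.6 CPM against 12.2, 12.9 and 11.0 CPM. It fell by 0.66 ± 0.11 on the log2 scale (adjusted p = 0.000122), with no shKRT15 library near the shNC range. ABCC5 (MRP5), an exporter of cyclic nucleotides, had 35.1, 33.0 and 29.6 CPM against 27.2, 25.4 and 25.6 CPM. This smaller fall of 0.32 ± 0.10 had an adjusted p of 0.0112, or 0.0632 when replicate 1 of shNC was dropped, which ended the call.

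ABCC1 (MRP1), the broad exporter of glutathione conjugates and the most abundant pump here, had 145, 148 and 121 CPM in shNC and 118, 107 and 125 CPM in shKRT15. Replicate 3 of shNC lay below the highest shKRT15 library, so the groups overlapped. The log2 fold change was −0.24 ± 0.09 (adjusted p = 0.0292). The call of ABCC1 was lost with total-count scaling (adjusted p = 0.0907), without shNC replicate 1 (0.0976) or 2 (0.160), and without shKRT15 replicate 1 (0.0879) or 2 (0.124). After correction of each library for GC and length, the value was −0.38.

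ABCB1 (P-glycoprotein), the classical multidrug pump, was expressed at a low level, 3.95, 2.19 and 3.67 CPM in shNC against 1.78, 2.00 and 1.38 CPM in shKRT15. The second shNC library sat just above the highest shKRT15 library. ABCB1 differed by a log2 fold change of −0.92 ± 0.27 (adjusted p = 0.0110), resting on 351 and 215 reads. Dropping replicate 1 of shNC (adjusted p = 0.0564) or replicate 3 of shKRT15 (0.0518) ended the call.

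ABCC2 (MRP2), an apical exporter of conjugates, was scarcer still, with 90, 54 and 92 reads in shNC and 61, 23 and 14 reads in shKRT15. The first shKRT15 library, at 1.49 CPM, nearly reached the lowest shNC library at 1.52 CPM. The log2 fold change of ABCC2 was −1.47 ± 0.45 (adjusted p = 0.0136). Without shKRT15 replicate 1 it was −2.30 (adjusted p = 0.000588), and the call was lost without shKRT15 replicate 2 (adjusted p = 0.0655) or 3 (0.0567).

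ABCC4 (MRP4), which exports cyclic nucleotides, prostaglandins and nucleoside drugs, was the only pump called higher. It had 55.3, 61.6 and 48.0 CPM in the shNC libraries and 84.2, 86.1 and 87.4 CPM in shKRT15. All 3 shKRT15 libraries exceeded every shNC library, with a 1.56-fold rise (log2 fold change 0.64 ± 0.09, adjusted p = 1.60e-05). The call of ABCC4 was kept in all 18 other settings and left-out libraries.

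ABCG2 (BCRP), the second pump for which lenvatinib is a known substrate, was not called. Its CPM were 2.98, 1.96 and 2.99 in shNC and 3.25, 2.70 and 2.13 in shKRT15, with overlapping groups. The log2 fold change was 0.03 with a 95% interval from −0.51 to 0.56 (adjusted p = 0.947). At 284 and 335 reads, a change within that interval is not excluded. ABCC6 (MRP6), a liver and kidney exporter tied to soft-tissue calcification, had 3.06 ± 0.518 CPM in shNC and 3.06 ± 0.435 CPM in shKRT15 (SD, n = 3 each). Its log2 fold change was −0.0012 with an interval from −0.47 to 0.47. ABCC6 has near-identical pseudogene copies, so its reads are uncertain. ABCC11 (MRP8) had 8 reads in shNC and 12 in shKRT15 and was not tested.

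Per transcript length, the summed level of the pumps was 37.3 ± 2.75 RPKM (SD, n = 3) in shNC and 34.0 ± 1.22 RPKM in shKRT15. RPKM is CPM per kilobase of exon. The libraries were at 38.8, 39.0 and 34.1 RPKM against 34.2, 32.7 and 35.1 RPKM, and these ranges overlapped. ABCC1 made up 48.7% of this sum in shNC and 45.2% in shKRT15. The share of ABCC4 was 17.0% in shNC and 29.2% in shKRT15, while that of ABCC3 was 15.5% and 10.5%. ABCB1 made up 1.52% and 0.877%, and ABCG2 made up 1.42% and 1.57%.

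Among exporters of sterols and phospholipids, ABCA1 had the largest fall of the family and the other 2 tested, ABCA7 and ABCB4, were not called. ABCA1 loads cholesterol and phospholipid onto apolipoprotein A-I, the first step of HDL formation, and is a textbook target of the oxysterol receptor LXR. Its level was 446, 410.1 and 316 CPM in the shNC libraries and 118, 124 and 110.4 CPM in shKRT15. Even the lowest shNC library was far above the highest shKRT15 library. The difference was 3.33-fold lower in shKRT15 (log2 fold change −1.74 ± 0.10, interval −1.96 to −1.51, adjusted p = 2.46e-09), and it was kept in all 18 other settings. ABCA1 lies at chr9:104781006-104928155 on the minus strand, directly downstream of the window printed above.

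**Figure D3:**
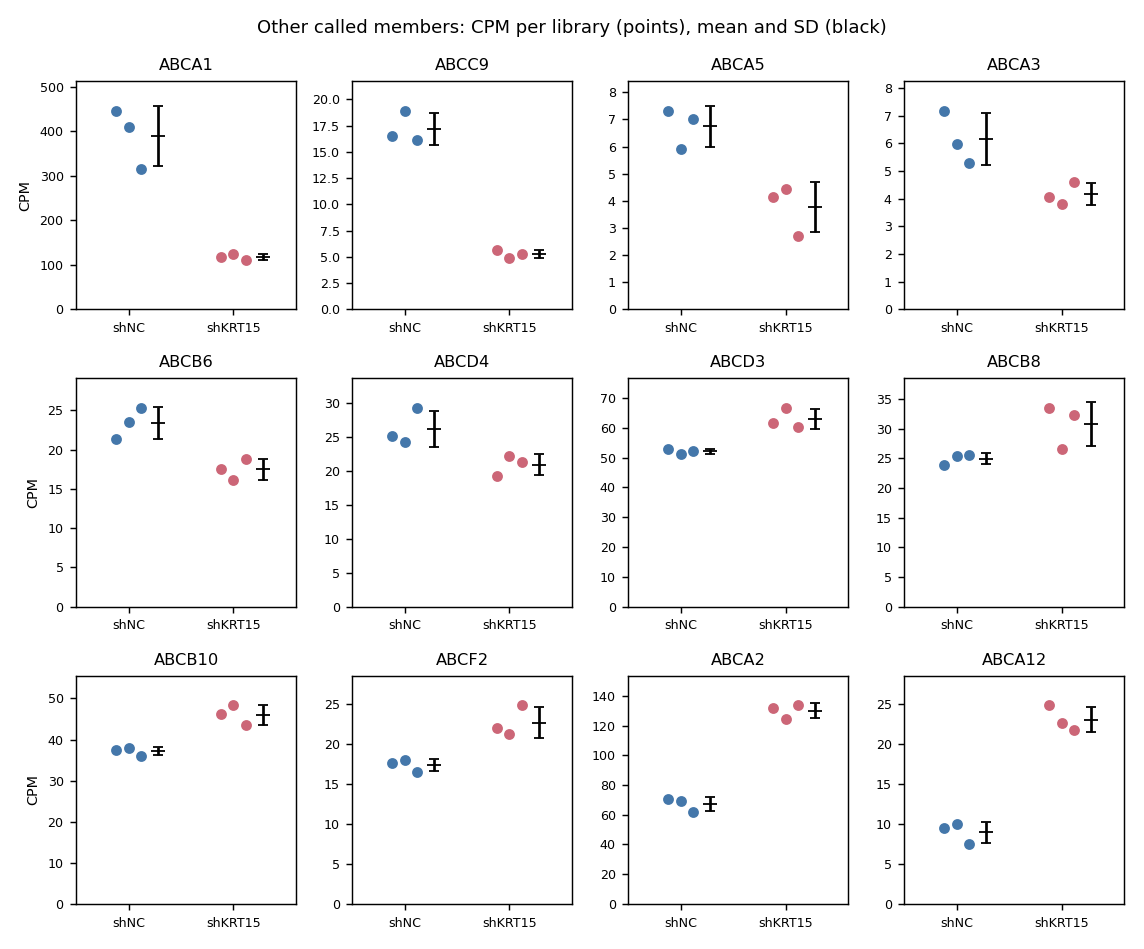
CPM (y axis, starting at 0) of the 12 called members outside the drug pumps in each of the 3 shNC and 3 shKRT15 libraries (points), with the mean and SD in black. For all 12 the points of the groups are separate, widely so for ABCA1, ABCC9, ABCA2 and ABCA12 and narrowly for ABCB8. The 12 were drawn because they were called, which favours separate points, and 54% of all genes tested had separate groups.

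ABCA7, which moves phospholipids and is a risk gene for late-onset Alzheimer disease, had 7.11 ± 0.252 CPM in shNC and 8.80 ± 1.01 CPM in shKRT15. Its log2 fold change of 0.31 missed the threshold (adjusted p = 0.0884), and passed it with total-count scaling (0.0433) and without shKRT15 replicate 2 (0.0425). ABCB4, the phosphatidylcholine exporter of bile, was at 6.67 ± 0.271 CPM against 5.23 ± 0.888 CPM (log2 fold change −0.35, adjusted p = 0.0980). ABCB4 shares 33899 bases of its locus with CROT, a peroxisomal carnitine acyltransferase with 2612 reads that was lower at −0.75 ± 0.13 (adjusted p = 0.000219). The strand setting of the counts is not given in the sources used here, so reads of such pairs cannot be told apart. ABCG1, which exports cholesterol to HDL, had 0 reads in shNC (0 allows up to 3 over the group) and 3 in shKRT15. ABCG4 had 7 reads against 33, a ratio of 4.07 with a counting interval from 1.77 to 10.9, and without the filter on low counts its adjusted p was 0.192.

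Members of endosomes, lysosomes and lamellar bodies moved in both directions, with ABCA2 higher and ABCA3, ABCA5 and ABCD4 lower of 5 tested. That is 20% higher and 60% lower, against 22.1% and 23% of all genes tested. ABCA2, a lysosomal lipid transporter of nerve tissue also linked to resistance to estramustine, had 70.5, 69.5 and 62.0 CPM in shNC against 132, 125 and 134 CPM in shKRT15. The 1.93-fold rise (log2 fold change 0.95 ± 0.08, adjusted p = 2.30e-08) was seen in every shKRT15 library, and the value was 0.76 after correction for GC and length. ABCA5, a lysosomal transporter, had 7.32, 5.89 and 7.03 CPM against 4.13, 4.45 and 2.72 CPM. Its groups did not overlap and it fell by 0.84 ± 0.20 on the log2 scale (adjusted p = 0.00208), or by 0.50 after that correction.

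ABCA3, which fills lamellar bodies with surfactant lipid in the lung, had 7.18, 5.98 and 5.30 CPM in shNC and 4.05, 3.82 and 4.60 CPM in shKRT15. It fell by 0.57 ± 0.18 (adjusted p = 0.0150), and the call was lost without shNC replicate 1 (0.0868) and without shKRT15 replicate 1 (0.0544) or 2 (0.0547). ABCD4, which takes cobalamin out of lysosomes, had 25.1, 24.3 and 29.2 CPM against 19.3, 22.2 and 21.3 CPM. The fall of ABCD4 by 0.33 ± 0.10 (adjusted p = 0.0178) was no longer called with total-count scaling (0.0542), without shNC replicate 3 (0.0637) or without shKRT15 replicate 1 (0.119). ABCB9, the lysosomal peptide transporter, was at 2.58 ± 0.172 CPM against 3.13 ± 0.110 CPM and was not called (log2 fold change 0.28, adjusted p = 0.315).

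ABCA12, which delivers glucosylceramide to lamellar granules of keratinocytes for the skin barrier, showed the largest rise of the family. It had 9.47, 9.96 and 7.51 CPM in the shNC libraries and 24.9, 22.6 and 21.8 CPM in shKRT15. No shKRT15 library came near the shNC range, and the rise was 2.57-fold (log2 fold change 1.36 ± 0.12, adjusted p = 1.13e-07). The other subfamily A lipid transporters were barely expressed. ABCA10 had 41 reads against 52 and ABCA13 had 43 against 25, and neither was called. ABCA4, the retinal transporter, had 8 reads against 2, ABCA6 had 4 against 1 and ABCA9 had 3 against 5, too few to test.

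ABCC9 (SUR2), which transports nothing itself and regulates ATP-sensitive potassium channels, fell almost as far as ABCA1. Its level was 16.5, 18.9 and 16.1 CPM in shNC and 5.62, 4.91 and 5.24 CPM in shKRT15. The groups were widely separate, 3.27-fold lower in shKRT15 (log2 fold change −1.71 ± 0.13, adjusted p = 1.12e-08). Of its pore-forming partners KCNJ8 and KCNJ11, only KCNJ11 was in the table. It had 9 reads in shNC and 11 in shKRT15, too few to test.

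The mitochondrial members split, with ABCB8 and ABCB10 higher and ABCB6 lower of 4 tested. That is 50% higher and 25% lower, against 22.1% and 23% of all genes tested. ABCB10, an inner membrane protein needed for haem synthesis, had 37.4, 37.9 and 36.0 CPM in shNC against 46.2, 48.3 and 43.4 CPM in shKRT15. Its rise of 0.31 ± 0.08 on the log2 scale (adjusted p = 0.00662) had separate groups. ABCB6, a porphyrin transporter also found outside mitochondria, had 21.3, 23.5 and 25.3 CPM against 17.5, 16.1 and 18.8 CPM. It fell by 0.42 ± 0.11 (adjusted p = 0.00397).

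ABCB8, a subunit of mitochondrial potassium channels, had 23.9, 25.4 and 25.6 CPM in shNC and 33.5, 26.5 and 32.4 CPM in shKRT15. The second shKRT15 library lay close to the shNC range. The log2 fold change of ABCB8 was 0.30 ± 0.10 (adjusted p = 0.0238), and 0.13 after correction for GC and length (adjusted p = 0.221). Its call was also lost without shNC replicate 1 (0.0668) or 2 (0.0613) and without shKRT15 replicate 1 (0.128) or 3 (0.0818).

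Peroxisomal members import fatty acyl-CoA for oxidation. ABCD3 (PMP70), which takes branched-chain and dicarboxylic acids, had 53.0, 51.2 and 52.1 CPM in shNC and 61.5, 66.6 and 60.3 CPM in shKRT15. All shKRT15 libraries were higher, by 0.27 ± 0.08 on the log2 scale (adjusted p = 0.0102). The call of ABCD3 was lost without shNC replicate 2 (adjusted p = 0.0554), and the value was 0.51 after correction for GC and length. ABCD2, with 20 and 21 reads, was not tested. ABCB11, the bile salt export pump of the liver, had 3 reads in shNC and 4 in shKRT15.

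The soluble members, which act in translation, included the abundant ABCF1 and ABCE1. Of these members, 1 of 4 was called (25%, against 45% of all genes tested). This was ABCF2, 14th in level per length in shNC, with 17.6, 17.9 and 16.4 CPM in shNC and 21.9, 21.2 and 24.8 CPM in shKRT15. Its groups did not overlap (log2 fold change 0.39 ± 0.10, adjusted p = 0.00600). ABCE1, which splits ribosomes after termination, had 130.3 ± 9.36 CPM against 134 ± 9.32 CPM (0.04, interval −0.13 to 0.20, adjusted p = 0.730). After correction for GC and length ABCE1 was called higher at 0.27 (adjusted p = 0.000900). ABCF1, a partner of initiation factor eIF2, had 97.2 ± 0.760 CPM against 107 ± 11.5 CPM (0.14, adjusted p = 0.162). It passed the threshold with total-count scaling (0.0400) and without shKRT15 replicate 2 (0.0420). ABCF3 had 43.3 ± 2.03 CPM against 47.8 ± 2.76 CPM (0.14, adjusted p = 0.186).

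The order of the levels per length changed at its top. ABCA1 stood first in shNC at 34.4 ± 5.94 RPKM (SD, n = 3), ahead of ABCF1 at 21.5 RPKM, ABCE1 at 20.8 RPKM and ABCC1 at 18.2 RPKM. The lowest ABCA1 library, 27.8 RPKM, was above every library of the next member, whereas the ranges of ABCF1 and ABCE1 overlapped, as did those of ABCE1 and ABCC1. In shKRT15 ABCF1 came first at 23.7 RPKM, then ABCE1 at 21.3 RPKM and ABCC1 at 15.4 RPKM, with ABCF1 and ABCE1 again overlapping. ABCA1 was now 6th at 10.3 RPKM, and its range overlapped those of ABCB10 at 10.8 RPKM, ABCA2 at 11.3 RPKM and ABCC4 at 9.94 RPKM. ABCA2 moved from 9th place to 4th, ABCA12 from 20th to 16th and ABCC9 from 19th to 24th.

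**Figure D4:**
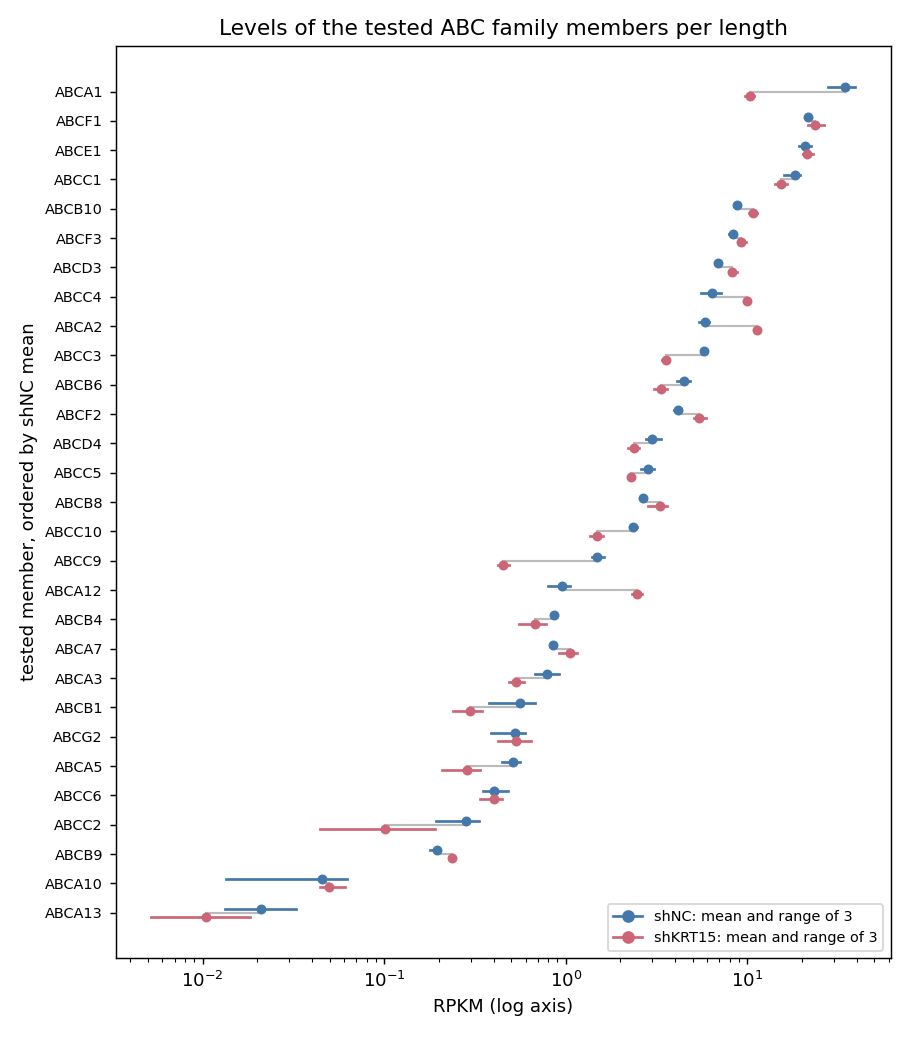
Mean RPKM (x axis, log scale) of 29 of the 31 tested members in shNC and shKRT15, ordered by the shNC mean on the y axis, with lines over the range of the 3 libraries of each group. ABCA1 leaves the first place, from 34.4 to 10.3 RPKM, while the means of ABCF1 (21.5 and 23.7 RPKM) and ABCE1 (20.8 and 21.3 RPKM) lie close together.

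Summed over all members, the level was 173 ± 10.2 RPKM in shNC and 158 ± 3.63 RPKM in shKRT15, with overlapping libraries. Without ABCA1 the sum was 139 ± 4.35 RPKM against 147 ± 4.19 RPKM, where every shKRT15 library was above every shNC library. Leaving out the member with the largest fall shifts the comparison toward shKRT15 by itself, so this separation is only a description. Sterol and phospholipid exporters went from 36.1 to 12.1 RPKM, or from 20.9% to 7.68% of the family. The lysosomal group went from 10.3 to 14.8 RPKM, most of it ABCA2.

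Some members are neighbours in the genome (RefSeq, GRCh38.p14). ABCB4 and ABCB1 lie 26990 bases apart on chromosome 7, and their log2 fold changes were −0.35 (not called) and −0.92 (called lower). ABCC1 and ABCC6 lie 6512 bases apart on chromosome 16, at −0.24 (called) and −0.0012 (not called). On chromosome 17 the ends of ABCA10 and ABCA5 overlap by 538 bases, and of these only ABCA5 was called. ABCB8 and ABCF2, 163702 bases apart on chromosome 7, were both called higher. ABCC5 and ABCF3, 168315 bases apart on chromosome 3, were at −0.32 (called lower) and 0.14 (not called).

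Family members named outside the letter and number rule include TAP1 and TAP2, which carry peptides into the endoplasmic reticulum for MHC class I. TAP1 fell from 115 ± 5.52 to 84.4 ± 6.44 CPM (log2 fold change −0.45 ± 0.08, adjusted p = 0.000150). TAP2 fell from 114 ± 3.78 to 96.9 ± 1.72 CPM (−0.24 ± 0.07, adjusted p = 0.00942), a call lost without shKRT15 replicate 1 (adjusted p = 0.0549). CFTR had 2 reads in all. Of 10 genes that supply or receive these peptides, 3 were higher, the chaperone CALR (0.60) and the immunoproteasome subunits PSMB8 (0.44) and PSMB9 (0.49), and 2 were lower, including B2M (−0.32), the light chain of MHC class I. After correction for GC and length, 4 of the 10 were lower. The called share was 50%, near the 45% of all genes.

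Genes around the transporters were counted from lists that name their regulators and partners. Of 13 tested LXR and sterol partners, 3 were higher and 2 lower, a called share of 38.5% that lies below the 45% of all genes. The receptor subunit RXRA rose by 0.64, the receptor NR1H3 (LXR alpha) by 0.74 and apolipoprotein APOC1 by 0.99 on the log2 scale. MYLIP, an LXR target and ubiquitin ligase, fell by 0.68, and the lysosomal cholesterol carrier NPC2 fell by 0.38. The list's median was −0.0010, and its other 8 tested genes were not called. The list mixes receptors with their targets, and the part of LXR in the fall of ABCA1 was not tested. In the SREBP2 list for cholesterol uptake and synthesis, 5 of 11 were lower and none was higher: HMGCS1 (−0.75), STARD4 (−0.71), SQLE (−0.50), INSIG1 (−0.50) and IDI1 (−0.39). That is 45.5% lower and 0% higher, against 23% and 22.1% of all genes. The called share in either direction, 45.5%, is near the 45% of all genes. The other 6 were not called, and 1 gene of the list was higher with total-count scaling or the GC and length correction.

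Among 13 tested xenobiotic and NRF2 genes, 4 were lower and 3 higher, or 1 higher with DESeq2 or without any single shKRT15 library. Their called share of 53.8% is near the 45% of all genes. NFE2L2, which encodes NRF2, fell from 138 ± 4.49 to 90.9 ± 5.80 CPM (log2 fold change −0.61 ± 0.07, adjusted p = 3.63e-06). HMOX1, haem oxygenase, fell by 1.40, the aryl hydrocarbon receptor AHR by 0.57 and GCLC, for glutathione synthesis, by 0.34. The 3 called higher were CYP1A1 (0.67), CYP1B1 (0.40) and KEAP1 (0.28), and 6 were not called. NQO1, a textbook NRF2 target, was not called (0.09, adjusted p = 0.298). Of 10 tested genes of glutathione conjugation, which makes substrates for the MRP pumps, 4 were higher, including GSTM4 (1.10) and GSR (0.35), and 2 lower, GSTO1 (−0.81) and MGST1 (−0.32), 60% called in all.

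The uptake side of drug transport belongs largely to carriers of the SLC family, of which 5 were higher and 4 lower of 16 tested. The list also holds exporters, among them SLC47A2 below, so its higher count is not of uptake carriers alone. The called share of 56.2% is near the 45% of all genes. SLC22A4 fell by 1.33, SLCO2B1 by 0.97 and SLCO1B3 by 0.80 on the log2 scale. SLC47A2 (MATE2), an exporter of organic cations, had 0 reads in shNC and 153 in shKRT15, at least 44.0-fold higher against a floor of 3 reads over the group. SLC47A2 thus entered the test through its shKRT15 reads alone, and it is counted among the 5 higher and in the called share. Its level in shKRT15 was 1.23 ± 0.0172 CPM.

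**Figure D5:**
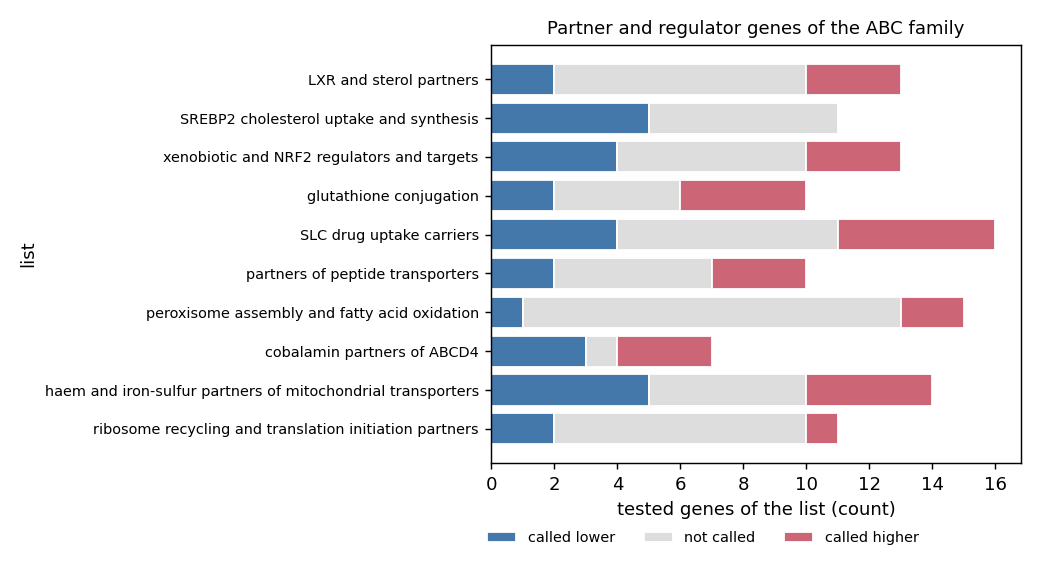
Number of tested genes (x axis) called lower, not called and called higher in each of 10 lists of partner and regulator genes (y axis). The SREBP2 list has 5 lower and 0 higher genes, and the peroxisome list is mostly uncalled, with 2 higher and 1 lower of 15.

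Partners of the organelle transporters were mixed. Of 7 cobalamin genes 3 were higher, including the carrier TCN2 (0.77) and its receptor CD320 (0.63), and 3 lower, including LMBRD1 (−0.57), which escorts ABCD4 to lysosomes, and MMADHC (−0.45). Of 14 haem and iron-sulfur genes 4 were higher, including ALAD (0.60) and ferrochelatase FECH (0.52), and 5 lower, including the iron carrier SLC25A37 (−1.13) and ALAS1 (−0.52), the first enzyme of haem synthesis. In the peroxisome list of 15, catalase (CAT, 0.73) and PEX10 (0.74) were higher and PEX13 (−0.49) lower, against 7 higher after correction for GC and length. For the translation members, GCN1 (0.37) was higher and EIF2S2 (−0.52) and EIF3J (−0.28) were lower of 11. The called share of these lists was 85.7%, 64.3%, 20% and 27.3%, beside 45% of all genes.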

How the data were processed

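RNA sequencing covered 3 shNC and 3 shKRT15 libraries. Per the labels' protocols, TRIzol RNA was purified to mRNA and built into Illumina libraries by a service provider. The deposited table gives the authors' raw counts, whole numbers with no normalization. The build was GRCh38, per the submitters' processing notes. For aligner, counter, annotation and strand, the choice is not given in the sources used here. No library pair agreed within sampling noise, and all 6 were used.

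Differences were tested with edgeR 4.0.16 (R 4.3.3, quasi-likelihood, robust, two-sided, TMM scaling, group as the only term) on genes kept by filterByExpr (minimum count 10, total 15). P-values were adjusted by Benjamini-Hochberg over all 14356 genes. CPM used TMM-scaled library sizes, and RPKM the GENCODE exon length. Fits were tested on simulated data. Counting intervals (95%) and floors cover counting error only. Every member was counted, and values of some members and list genes are not reported here. Drug pumps and called members were named with values, and of each other list up to 4 genes with the smallest p. NR1H3, IDI1, NQO1, CYP1A1, CYP1B1, KEAP1, CROT and the partners at 0 reads were chosen after their values were seen. Members and lists were chosen with earlier results of these data known.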

Additional observations from a re-analysis of the deposited data

How the results depend on the processing

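Total-count and upper-quartile scaling, DESeq2 size factors, DESeq2 1.42.0, limma-voom 3.58.1, other filters, protein-coding genes alone, the replicate block, correction for GC and length, both together and each left-out library were compared. Leaving out mitochondrially encoded genes was added after seeing the data. Over these 18 settings 11 of 19 called members and 4 of 12 uncalled ones kept their call. Family members called higher numbered 5 to 9 and lower 8 to 13 over the settings. Lower drug pumps numbered 3 to 6 over the left-out libraries, with 3 without shNC replicate 1. Same-numbered libraries showed no clear common deviation (correlations 0.0188, −0.0074 and 0.0462, beside −0.0476 to 0.0306 for differently numbered ones). These values cannot tell whether the cultures were handled in numbered pairs. With the replicate block, 7 members were higher and 12 lower.

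Values given here that changed sign belonged to members near 0, none of them called, and to EIF3J, and the cause was not tested. ABCC6 was at 0.0117 with upper-quartile scaling, 0.0578 with total-count scaling, 0.0011 with limma-voom, 0.0020 without a filter, 0.0057 with at least 1 CPM and 0.0016 with the replicate block. With the GC and length correction, EIF3J was at 0.0046, and with the block added at 0.0047. Over left-out libraries the range was −0.30 to 0.44 for ABCA10, −0.0959 to 0.149 for ABCC6, −0.0162 to 0.0979 for ABCE1 and −0.150 to 0.170 for ABCG2. The calls of list members that moved by over 1.5 times are given with the lists, apart from steps of 1 gene, and haem genes called lower went from 5 to 3 without shKRT15 replicate 1 or 3. Depth limits members under about 100 reads a group.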
